A study of Danio rerio with 5 samples.

Results

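The genes described here are 8 rows of the plate tables that mark macrophages or serve the handling of iron and engulfed material, among 23628 gene rows in all. They were taken by their Ensembl identifiers. MPEG1 (ENSDARG00000043093) and MFAP4 (ENSDARG00000038681) were taken as macrophage markers from general knowledge, and the myeloid transcription factor is SPI1 (ENSDARG00000000767). This MFAP4 row had 0 UMIs in the 1 well with a broad set of macrophage genes, described further on. The iron genes are SLC40A1 (ENSDARG00000000241) and HMOX1 (ENSDARG00000027529). The genes for lysosomes and uptake are LGMN (ENSDARG00000039150), grna (ENSDARG00000004954) and LRP1 (ENSDARG00000029146). Symbols are written as in the name table, partly in human style. SPI1 was not listed on plate 5 and grna was not listed on plate 3, and a gene not listed on a plate was counted as 0 there.

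The cells came from zebrafish embryos of the transgenic line runx1+23:mCherry at 3 dpf, in which an enhancer of mouse Runx1 drives mCherry in hematopoietic stem and progenitor cells (HSPCs). Embryos had received either the irf8 MO, a morpholino (an antisense oligomer injected into the embryo) against the macrophage factor irf8 that the study used to deplete macrophages, or the std MO, a standard control. Live mCherry+ cells of both kinds were sorted as single cells into the wells of 5 plates of 384 wells and sequenced by SORT-seq, which counts transcripts by unique molecular identifiers (UMIs). Wells 189 to 384 of each plate held irf8 MO cells and wells 1 to 188 held std MO cells, so that morpholino and plate position cannot be told apart. The groups shared line, stage and sort, and the sources used here do not say how many embryos gave the cells of a plate or whether plates came from separate clutches. Plates served as replicates (n = 5), so that p-values measure only the spread between these plates, which may be technical.

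MPEG1 encodes perforin-2, a pore-forming protein of macrophage vacuoles, and its promoter is a standard macrophage reporter in zebrafish embryos. MFAP4 encodes a fibrinogen-domain protein that labels zebrafish macrophages, although its mammalian counterpart is an extracellular matrix protein. SPI1, also called PU.1, directs the formation of both macrophages and neutrophils. Macrophages that digest dead red cells break heme down with heme oxygenase 1, the product of HMOX1, and send the iron out through ferroportin, the product of SLC40A1 and the only known cellular iron exporter in vertebrates. LGMN encodes legumain, a lysosomal endopeptidase. Progranulin a, the product of grna, is a secreted growth factor that lysosomes process into granulins. LRP1 encodes a large endocytic receptor that takes up many ligands and works in fibroblasts, neurons and liver cells as well as in phagocytes.

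Wells with at least 1000 estimated transcripts were kept. They numbered 466 of 980 for the irf8 MO and 467 of 940 for the std MO, with 10 to 143 kept wells per plate for the irf8 MO and 34 to 151 for the std MO. The median kept well held 6414 UMIs for the irf8 MO and 4479 for the std MO, so that irf8 MO wells were deeper. A gene with no UMI could still have been carried by up to 0.644% of the irf8 MO wells and 0.642% of the std MO wells, by counting error alone. Plates 3 and 5 had few kept wells, and 1 well gave 47.1% of the UMIs of the std MO sum on plate 3 and another 37.2% of the irf8 MO sum on plate 5. All 384 well barcodes were used on each of the 5 plates, and 327 well numbers were kept on at least 2 plates. IRF8, the targeted gene, had 12 UMIs in 7 irf8 MO wells (plates 1, 3 and 4) and 4 UMIs in 3 std MO wells (plates 4 and 5). A morpholino need not lower the transcript it binds, so this count does not check the labels.

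The labels call the sorted cells HSPCs. When the kept wells were clustered without the 8 genes, 119 of 933 fell into an HSPC-like cluster (cluster 3, marked by MYB and CCR9, with 36 irf8 MO and 83 std MO wells). The name rests on 3 of the 8 rows of the HSPC list, MYB among them, while CCR9 is a gene of the lymphoid list. The other clusters held red cell, neutrophil, muscle, cartilage, skin, lens and neural genes, and none was named macrophage-like. Globin-rich wells were the most common kind: clusters 1 and 5 held 402 wells, 192 of the irf8 MO and 210 of the std MO, and all of them lay on plates 1, 2 and 4. The split between these clusters went largely with plate. Cluster 1 had 117, 132 and 4 wells on plates 1, 2 and 4, and cluster 5 had 10, 11 and 128. The 26 wells of cluster 4, led by lens crystallins, were also rich in globin (median erythroid-list level 3516 per 10000 UMIs, against 3775 in cluster 1 and 3595 in cluster 5) and are counted with the other clusters.

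Across kept wells, LGMN was by far the most frequent of the 8 genes and MPEG1 the rarest. LGMN had a UMI in 338 wells (36.2%, 95% exact binomial interval 33.1 to 39.4), LRP1 in 137 (14.7%, 12.5 to 17.1), SLC40A1 in 89 (9.54%, 7.73 to 11.6) and MFAP4 in 48 (5.14%, 3.82 to 6.76). HMOX1 was carried by 22 wells (2.36%, 1.48 to 3.55), SPI1 by 21 (2.25%, 1.40 to 3.42), grna by 14 (1.5%, 0.823 to 2.50) and MPEG1 by 12 (1.29%, 0.666 to 2.24). These intervals cover counting error only. Most carriers held few copies: 174 of the 338 LGMN wells, 41 of the 48 MFAP4 wells and 8 of the 12 MPEG1 wells had exactly 1 UMI of the gene. Carriers of each of the 8 genes were deeper in the median than the wells without it. The median depth of carriers against the wells without the gene was 7568 against 4472 UMIs for LGMN, 12693 against 4878.5 for LRP1, 15624 against 4996 for SLC40A1 and 19271 against 5261 for MPEG1. When every well was thinned to 1000 UMIs, the expected share of carriers was 8.85% for LGMN, 2.96% for LRP1, 1.43% for SLC40A1, 0.674% for MFAP4, 0.442% for SPI1, 0.437% for HMOX1, 0.191% for MPEG1 and 0.152% for grna, so LGMN, LRP1 and SLC40A1 kept their order at the top and grna was then the rarest.

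As a gauge of background, the red cells that should lack macrophage genes were read in the same way. In the 402 globin-rich wells (median 4262.5 UMIs) MPEG1 was found in 2 (0.498%), MFAP4 in 1 (0.249%), grna in 1 (0.249%) and SPI1 and HMOX1 in 0, which allows up to 0.746%. In the 531 other wells (median 7963 UMIs) the shares were 1.88% for MPEG1, 8.85% for MFAP4, 2.45% for grna, 3.95% for SPI1 and 4.14% for HMOX1. After thinning they stood at 0.257% against 0.104% for MPEG1 and at 1.13% against 0.0785% for MFAP4 in other and globin-rich wells, a narrower gap for MPEG1, which rests on 10 and 2 wells, than for MFAP4, which rests on 47 and 1. The remaining genes were not absent from globin-rich wells: LGMN was in 158 (39.3%), SLC40A1 in 11 (2.74%) and LRP1 in 7 (1.74%). Thinned, LGMN was higher there than in the other wells (12.3% against 6.26%), while SLC40A1 (0.769% against 1.92%) and LRP1 (0.478% against 4.84%) were lower.

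MPEG1, the macrophage reporter gene, gave 30 UMIs in 12 wells, 13 UMIs in 6 irf8 MO wells and 17 UMIs in 6 std MO wells. By plate, from plate 1 to plate 5, its carriers were 0, 2, 0, 3 and 1 irf8 MO wells, against 2, 4, 0, 0 and 0 std MO wells. The carriers were thus on 3 plates in the irf8 MO and on 2 in the std MO, and the shares of the 2 groups overlapped. In percent of kept wells this gave 0, 1.41, 0, 2.1 and 10.0 for the irf8 MO and 1.32, 3.42, 0, 0 and 0 for the std MO. The last irf8 MO value is 1 of 10 wells. The mean was 2.70% ± 4.18 in irf8 MO wells and 0.949% ± 1.5 in std MO wells (SD, n = 5 plates each), a difference of 1.75 percentage points (exact sign-flip permutation test over plates, two-sided, p = 0.625), and without plates 3 and 5 it was -0.41. With 5 plates this test cannot go below 0.062, so that it could not reach 0.05 for any gene.

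Of the 12 MPEG1 wells, 3 held most of its UMIs. Plate 4 well 195 (irf8 MO, 42511 UMIs) had 8 of them, plate 2 well 93 (std MO, 21936 UMIs) had 7 and plate 1 well 4 (std MO, 16606 UMIs) had 5. The first of these wells lay in cluster 8, led by the cartilage collagen COL2A1, and the second in cluster 9, led by the keratin genes krt91 and krt5. Only plate 1 well 4 carried many other macrophage genes. Plate 2 well 93 had UMIs of 1 gene of the macrophage list and plate 4 well 195 of 2. In all, 5 of the 12 MPEG1 wells fell into cluster 8, 2 into cluster 9, 2 into the erythroid-like cluster 1, and 1 each into clusters 2, 3 and 11.

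MFAP4 had 57 UMIs in 48 wells, with 31 UMIs in 25 irf8 MO wells and 26 UMIs in 23 std MO wells, and never more than 3 UMIs in a well. Its carriers from plate 1 to plate 5 made up 8.0, 2.82, 17.4, 2.1 and 0% of irf8 MO wells, against 4.64, 0.855, 8.82, 5.38 and 14.3% of std MO wells. The share was higher in irf8 MO wells on plates 1, 2 and 3 and lower on plates 4 and 5. It averaged 6.06% ± 6.98 in irf8 MO wells and 6.80% ± 5.05 in std MO wells (SD, n = 5), a difference of -0.74 percentage points (exact sign-flip permutation test, p = 0.875). After thinning the difference was 0.0760 and without plates 3 and 5 it was 0.680, so its direction changed with the setting. The carriers were found across the sort: 14 in the HSPC-like cluster (11.8% of its wells), 10 in the neural-like cluster 6 (11.9%), 8 in the COL2A1-led cluster 8 (10.1%) and 6 in each of clusters 7 and 11. None lay in the neutrophil-like cluster 2, where 0 of 11 allows up to 27.3%. Thinned to 1000 UMIs, the HSPC-like cluster was highest at 2.24%, followed by cluster 8 at 1.28%.

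No well carried both MPEG1 and the MFAP4 row studied here, although 2 MPEG1 wells held UMIs of another row named MFAP4 (ENSDARG00000088745). With so few carriers, only 0.617 shared wells would be expected if the genes were unrelated, so the absence of overlap is not informative. Wells with either gene numbered 60, and by plate they made up 8.0, 4.23, 17.4, 4.20 and 10.0% of irf8 MO wells, against 5.96, 4.27, 8.82, 5.38 and 14.3% of std MO wells. The irf8 MO share was higher on 2 of 5 plates, and the mean difference was 1.02 percentage points (range over plates -4.29 to 8.57). The shares of the groups overlapped.

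SPI1 was carried by 9 irf8 MO wells with 24 UMIs and by 12 std MO wells with 36 UMIs. From plate 1 to plate 5 the share was 2.40, 2.11, 2.17, 1.40 and 0% in irf8 MO wells, against 3.97, 0.855, 0, 3.85 and 0% in std MO wells. The mean was 1.62% ± 0.979 in irf8 MO wells and 1.73% ± 2.02 in std MO wells (SD, n = 5; difference -0.12 percentage points, exact sign-flip permutation test, p = 0.875). Among the 8 genes SPI1 was the only one with most of its transcripts in a small cluster, described further on.

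SLC40A1, the iron exporter, gave 80 UMIs in 38 irf8 MO wells and 71 UMIs in 51 std MO wells. It was carried by 5.6, 8.45, 15.2, 8.39 and 0% of irf8 MO wells on plates 1 to 5, against 6.62, 9.40, 11.8, 13.1 and 25.7% of std MO wells. The share was lower in irf8 MO wells on 4 of 5 plates, with the largest gap on plate 5, where the irf8 MO had only 10 kept wells. It averaged 7.53% ± 5.50 in irf8 MO wells and 13.3% ± 7.35 in std MO wells (SD, n = 5), a difference of -5.78 percentage points (exact sign-flip permutation test, p = 0.312) that shrank to -0.80 without plate 5. Thinned, the mean shares were 1.26% and 2.12%, with 4 of 5 plates lower in irf8 MO wells.

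HMOX1, which opens the heme ring, gave 26 UMIs in 12 irf8 MO wells and 18 UMIs in 10 std MO wells. The share was 2.40, 2.11, 4.35, 2.1 and 10.0% in irf8 MO wells, against 1.99, 3.42, 2.94, 0.769 and 2.86% in std MO wells of plates 1 to 5. It was higher in irf8 MO wells on 4 of 5 plates, but the plate 5 value rested on 1 well of 10. The difference was 1.80 percentage points (4.19% ± 3.38 in irf8 MO wells and 2.39% ± 1.05 in std MO wells, SD, n = 5; exact sign-flip permutation test, p = 0.188) and 0.461 without plate 5. None of the 402 globin-rich wells held an HMOX1 UMI, while 2 of 11 wells of the neutrophil-like cluster 2, 4 of 40 of cluster 9, 7 of 79 of cluster 8 and 3 of 119 of cluster 11 did, and the other 6 carriers lay in clusters 3, 4 and 6. Thinned to 1000 UMIs these shares were 1.51% in cluster 2, 1.56% in cluster 9, 0.942% in cluster 8 and 1.196% in cluster 11. Of the 2 HMOX1 wells of cluster 2, 1 was plate 1 well 4, which carried many macrophage genes. SLC40A1 was found in 19 of 79 wells of cluster 8 and 14 of 40 of cluster 9, against 11 of 402 globin-rich wells.

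LGMN, the legumain gene, was the most abundant of the 8, with 535 UMIs in 214 irf8 MO wells and 287 UMIs in 124 std MO wells. Its share was 44.0, 49.3, 21.7, 53.8 and 20% of irf8 MO wells on plates 1 to 5, against 25.8, 29.1, 23.5, 23.1 and 37.1% of std MO wells. It was higher in irf8 MO wells on plates 1, 2 and 4, by 18.2 to 30.8 percentage points, and lower on plates 3 and 5. The mean was 37.8% ± 15.8 in irf8 MO wells and 27.7% ± 5.77 in std MO wells (SD, n = 5), a difference of 10.0 percentage points (exact sign-flip permutation test, p = 0.312). Depth moved with it, since the median irf8 MO well was deeper than the median std MO well on plates 1, 2 and 4 and shallower on plates 3 and 5. Thinned to 1000 UMIs, the shares averaged 8.40% in irf8 MO wells and 6.64% in std MO wells, a difference of 1.76 percentage points, higher on 4 of 5 plates (exact sign-flip permutation test, p = 0.312).

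LRP1, the endocytic receptor, gave 190 UMIs in 74 irf8 MO wells and 159 UMIs in 63 std MO wells. It was found in 19.2, 11.97, 19.6, 14.7 and 30% of irf8 MO wells, against 12.6, 10.3, 26.5, 10.0 and 28.6% of std MO wells of plates 1 to 5. The irf8 MO share was higher on every plate but plate 3, by at most 6.62 percentage points. The mean difference was 1.51 percentage points (exact sign-flip permutation test, p = 0.562), with 19.1% ± 6.88 in irf8 MO wells and 17.6% ± 9.16 in std MO wells (SD, n = 5). With wells of at least 500 transcripts it was -0.86, and with at least 2 UMIs of the gene -1.39. grna, the progranulin gene, gave 9 UMIs in 7 irf8 MO wells and 14 UMIs in 7 std MO wells, in 2.40, 2.11, 0, 0.699 and 0% of irf8 MO wells and 2.65, 0, 0, 1.54 and 2.86% of std MO wells (difference -0.37 percentage points, exact sign-flip permutation test, p = 0.625).

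**Figure D1:**
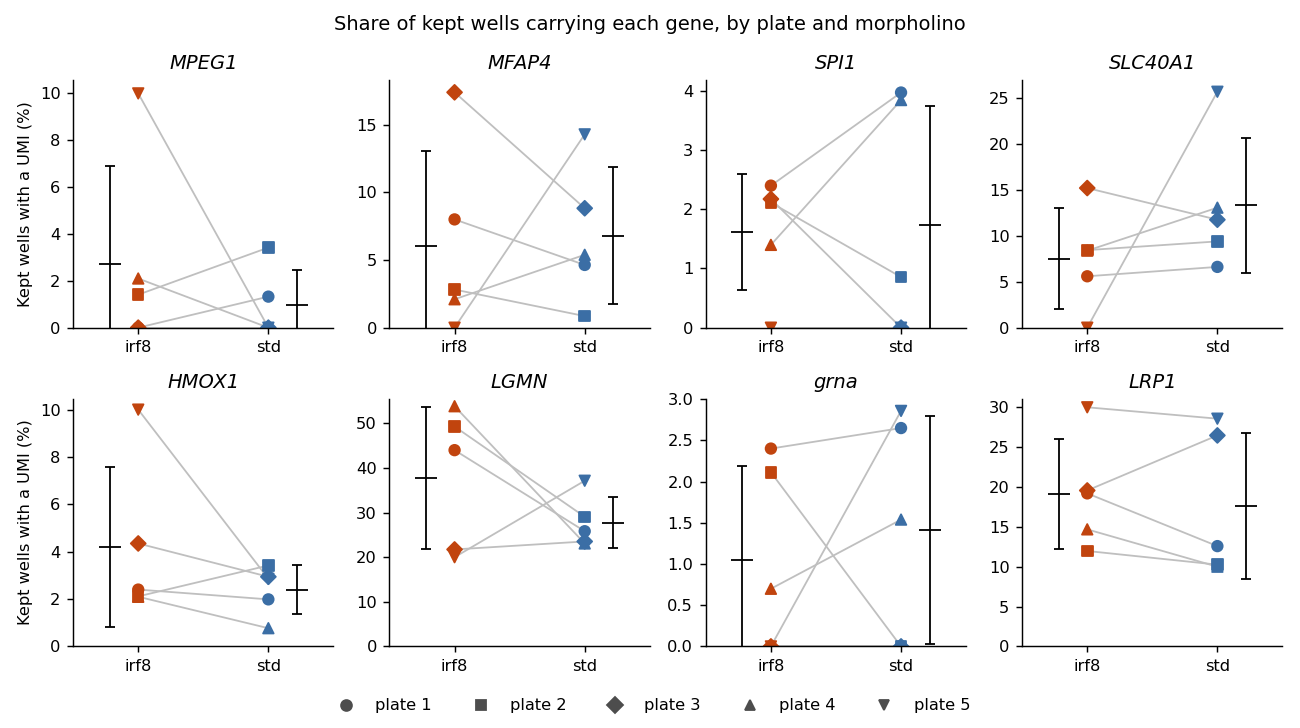
Share of kept wells with at least 1 UMI of each gene (%, one panel per gene, each with its own scale from 0), with irf8 MO wells left of std MO wells. Symbols are the 5 plates, grey lines join the wells of 1 plate, and bars give the mean and SD over plates, with the part of a bar under 0 not drawn. The groups overlap in all 8 panels, LGMN is higher in irf8 MO wells on plates 1, 2 and 4, and SLC40A1 is lower in irf8 MO wells on 4 of 5 plates.

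For the comparison over all genes, each plate gave a sum of the kept wells of either morpholino, and these 10 sums were fitted with the plate as a block. Of 7141 genes tested, 1 was called at an adjusted p under 0.05 (0.014% of the genes tested; edgeR quasi-likelihood test, Benjamini-Hochberg), and 671 had an unadjusted p under 0.05 (9.4%). None of the 8 genes was called, and only 3 of them passed the filter on low counts, namely LGMN, SLC40A1 and LRP1, and none of these had an unadjusted p under 0.05. The 1 gene past the threshold was si:dkey-238c7.12 (ENSDARG00000095556). CPM are counts per 1000000 counts of a sum, scaled by the normalization factor of the fit (TMM). The gene was lower in irf8 MO wells on 5 of 5 plates, at 279 ± 171 CPM against 1269 ± 887 CPM in std MO wells (SD, n = 5). Its log2 fold change was -2.08 (SE 0.18, edgeR adjusted p = 0.0166). It is among the leading genes of the HSPC-like cluster, which held 36 irf8 MO and 83 std MO wells. No gene was called when plate 1, 2, 3 or 4 was left out, while DESeq2 called 216 of the same 7141 genes and edgeR without a filter on low counts called 356. None of the 8 was among them, though only LGMN, SLC40A1 and LRP1 entered the DESeq2 fit. In sums over wells, fewer cells of a type and less RNA per cell cannot be told apart. The single wells that carry si:dkey-238c7.12 are not described here.

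LGMN stood at 85.5, 123, 74.4, 144 and 17.7 CPM in the irf8 MO sums of plates 1 to 5, against 93.2, 89.9, 69.0, 77.1 and 50.1 CPM in the std MO sums. On plate 1 the order depended on the scaling: unscaled, LGMN had 8.57 UMIs per 100000 UMIs in irf8 MO wells and 8.37 in std MO wells. The range of the irf8 MO sums enclosed that of the std MO sums, and the log2 fold change was 0.14 (SE 0.30, edgeR adjusted p = 0.942). SLC40A1 stood at 9.41, 20.5, 23.2, 17.3 and 0 CPM in irf8 MO sums, against 13.7, 19.8, 13.8, 27.5 and 24.2 CPM in std MO sums. Its log2 fold change was -0.31 (SE 0.41, edgeR adjusted p = 0.878), and it was higher in irf8 MO wells on 2 plates and lower on 3. LRP1 stood at 49.6, 39.6, 34.7, 33.2 and 44.2 CPM in irf8 MO sums, against 27.5, 33.5, 75.1, 35.3 and 57.0 CPM in std MO sums. Its log2 fold change was -0.07 (SE 0.32, edgeR adjusted p = 0.992), and without plates 3 and 5 it was 0.37. The widths of these errors leave room for changes in either direction. The other 5 genes were too sparse for the fit, with means of 15.5 ± 26.0 CPM in irf8 MO and 5.05 ± 6.63 CPM in std MO sums for HMOX1 (SD, n = 5), 6.79 and 7.19 CPM for MFAP4, 3.64 and 9.59 CPM for SPI1, 3.42 and 4.53 CPM for MPEG1 and 1.33 and 3.16 CPM for grna. The HMOX1 mean of the irf8 MO rests on plate 5, where 7 UMIs of 1 well gave 61.9 CPM, and without that plate, a choice made after seeing the data, the means were 3.86 CPM in irf8 MO and 5.88 CPM in std MO sums. On simulated data of this size the test called 0 of 200 genes changed by 1 on the log2 scale, 152 at 2 and 175 at 4. It also called 0, 8 and 9 unchanged genes. The simulated counts held no plate effect, and the changed genes were drawn from all genes tested, not at the levels of the 8.

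The 8 genes differed in the clusters where they were found. LGMN was carried by 39.5% of the erythroid-like cluster 1, 38.9% of the globin-rich cluster 5 and 39.5% of cluster 11, which mixes muscle and pigment cell genes. It was highest in cluster 9, the keratin cluster, at 65.0% of wells, where the median well held 20499.5 UMIs. Thinned to 1000 UMIs, the order changed: clusters 5 and 1 came first at 12.8% and 11.95%, and cluster 9 stood at 8.37%. LGMN was seldom found in the HSPC-like cluster (18.5% of wells, thinned 2.57%) and in none of the 13 wells of cluster 10, led by the thrombocyte integrin itga2b, where 0 of 13 allows up to 23.1%. LRP1 was concentrated in cluster 8 with COL2A1, COL5A1 and TGFBI, where 44 of 79 wells carried it (55.7%, thinned 14.9%), and was found in only 7 of 402 globin-rich wells. Its next highest shares were 17 of 40 wells in cluster 9, 14 of 40 in cluster 7 with the glial genes SLC6A11 and FABP7, and 27 of 84 in the neural-like cluster. The carriers of grna were 7 HSPC-like wells, 3 wells of cluster 2 (1 of them plate 1 well 4, with its macrophage genes), 2 neural-like wells and 1 well each in clusters 1 and 7. Which cells these clusters stand for was read from marker genes alone, and the shares are descriptions with no test.

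**Figure D2:**
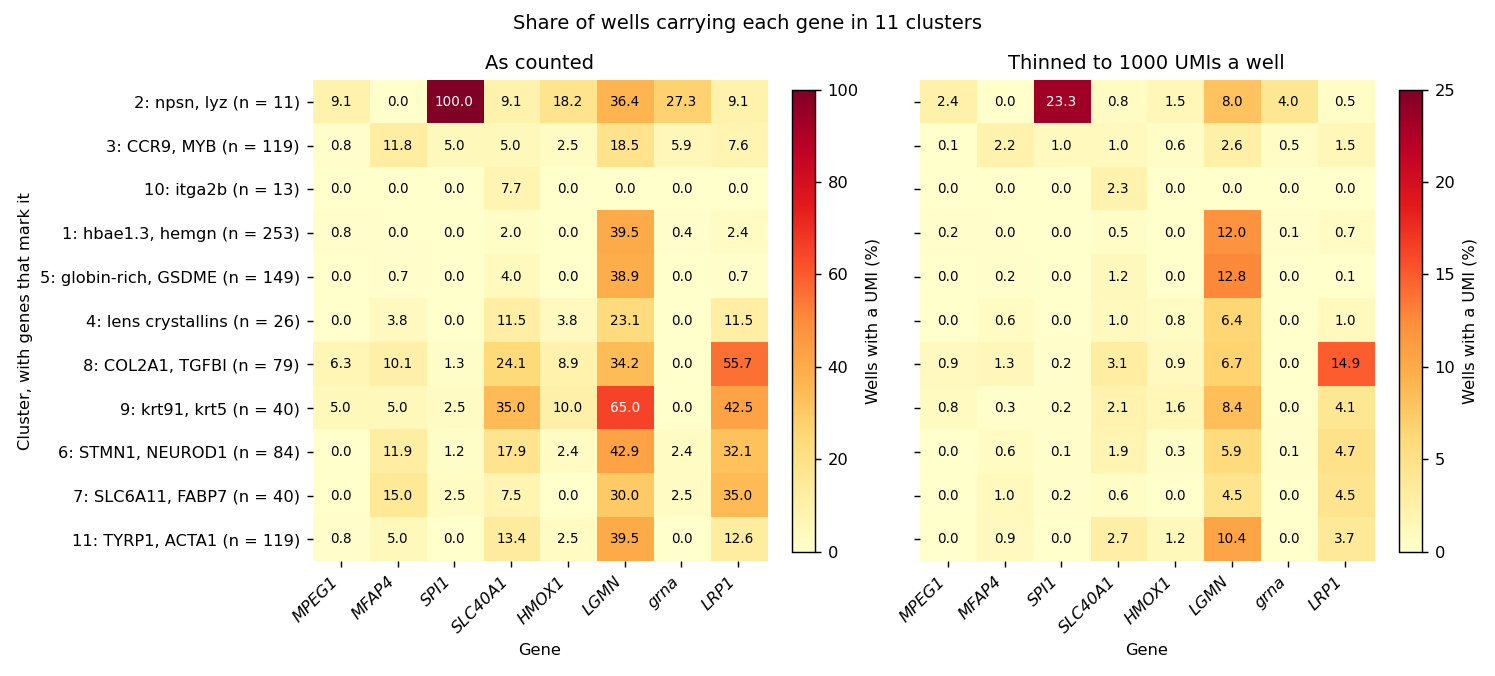
Share of wells with at least 1 UMI of each gene (%) in the 11 clusters (rows, with genes that mark each and the number of wells), as counted on the left (colour scale to 100%) and after thinning each well to 1000 UMIs on the right (colour scale to 25%). SPI1 is found in 100% of cluster 2, LRP1 is highest in cluster 8, and after thinning LGMN is highest in clusters 5 and 1.

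SPI1 was found in all 11 wells of the neutrophil-like cluster 2, marked by lyz and npsn (100%, 95% exact binomial interval 71.5 to 100), and in 10 of the 922 other wells (1.08%). These 11 wells, 4 of the irf8 MO and 7 of the std MO, held 49 of its 60 UMIs (81.7%). They include plate 1 well 4, with 2 SPI1 UMIs, whose macrophage genes are described below. Thinned to 1000 UMIs the shares were 23.3% and 0.169%. The clustering did not use SPI1 but rests on genes of the same cells, so this is a description. The highest values were 11 UMIs in plate 4 well 248 (irf8 MO) and 16 UMIs in plate 2 well 28 (std MO), which held 2472 and 2693 UMIs of the neutrophil list (9 rows, among them lyz, npsn, NCF1 and LECT2). A count of neutrophil genes per well gave the same picture. SPI1 was carried by 3 of 499 wells with none of these genes, 5 of 388 with 1 or 2, 3 of 36 with 3 or 4, and 10 of 10 with 5 or more. Those last 10 wells, 4 of the irf8 MO and 6 of the std MO, carried no MPEG1 and no MFAP4. MPEG1 was in 1.29% and MFAP4 in 5.14% of all kept wells, so their absence from 10 wells is not informative. The remaining SPI1 carriers outside cluster 2 were 6 wells of the HSPC-like cluster and 1 each in clusters 6, 7, 8 and 9. Of these 10, 9 had 1 UMI while plate 4 well 90 had 2. Plate 1 well 290 (irf8 MO), 1 of the 6, held 309 UMIs of the neutrophil list among its 5321 UMIs. For comparison, plate 4 well 35 of cluster 2 held 430 among 14884, so the cluster name need not hold for well 290. Wells numbered 166 on plates 1 and 4 were both neutrophil-like std MO wells.

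Plate 1 well 4, a std MO well, was the only well with a broad set of macrophage genes. It carried 6 of the 8 genes, with 21 UMIs of LGMN, 5 of MPEG1, 3 of grna, 2 each of HMOX1 and SPI1 and 1 of LRP1, and none of SLC40A1 or of the MFAP4 row studied here. It held 73 UMIs of 11 of the 17 macrophage-list rows, where no other well had more than 5 of them. Among these were ccl34b.1 (17 of 18 UMIs in all kept wells), lygl1 (15 of 26), SLC7A7 (14 of 21), havcr1 (6 of 8) and c1qb, whose 3 UMIs were all there. The other rows of the list, c1qa, tyrobp, timd4, IRF8, ms4a17a.10 and ms4a17a.11, had 0 UMIs in this well. Other genes stood out as well: tnfa, an inflammatory cytokine gene, gave 33 UMIs here and none elsewhere, ACOD1, which makes itaconate in activated macrophages, gave 65, and the cathepsin gene ctss2.2 gave 21. Of a second row named MFAP4 (ENSDARG00000088745) this well held 117 of 122 UMIs, of another (ENSDARG00000090783) 22 of 27, and of spi1a, the second PU.1 gene, 10 of 39. The clustering placed the well in cluster 2, although it had UMIs of only 3 of the 9 neutrophil-list rows (55 UMIs, 38 of them NCF1). The same well number on plates 2 to 5 held 0, 8, 0 and 1 UMIs of the 8 genes, and the well of plate 4 was under the threshold. Without this well, the std MO held 12 MPEG1 UMIs in 5 wells.

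**Figure D3:**
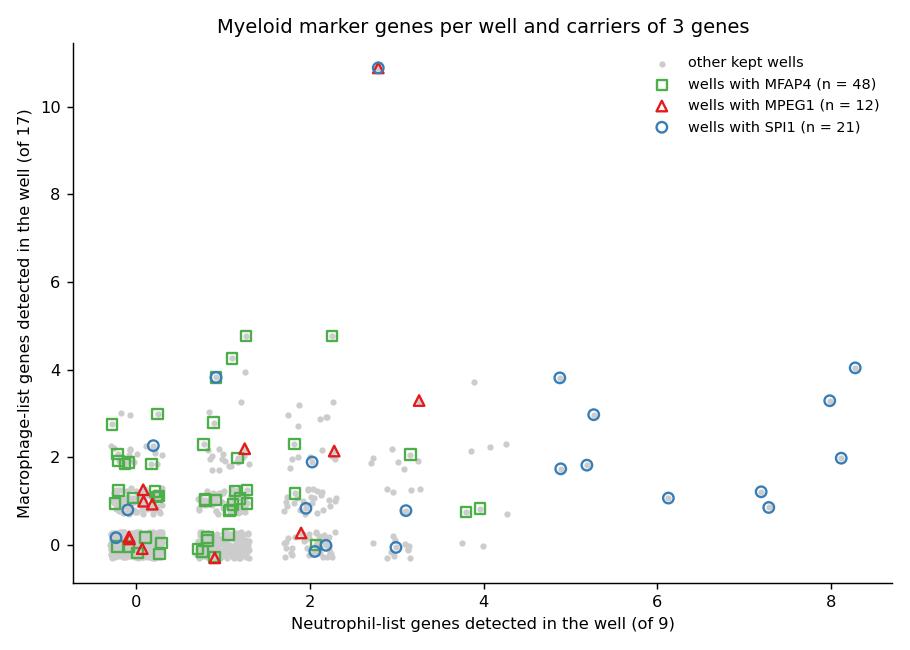
Number of macrophage-list rows detected per well (of 17, vertical) against the number of neutrophil-list rows detected (of 9, horizontal), 1 point per kept well with small random shifts to separate them. Blue circles mark the 21 SPI1 wells, red triangles the 12 MPEG1 wells and green squares the 48 MFAP4 wells. All 10 wells with 5 or more neutrophil-list rows carry SPI1, and plate 1 well 4 stands apart at 11 macrophage-list rows. None of the 10 carries MPEG1 or MFAP4, which is not informative, since 1.29% and 5.14% of all kept wells carry them.

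Within the globin-rich clusters 1 and 5, a split chosen after the data were seen, LGMN was found in 52.0, 57.3 and 55.0% of irf8 MO wells on plates 1, 2 and 4, against 18.2, 36.1 and 22.2% of std MO wells. LGMN was thus higher in irf8 MO wells on each of the 3 plates, and no globin-rich wells were kept on plates 3 and 5. How many of all genes separate the groups in these wells was not counted. The means were 54.8% in irf8 MO wells and 25.5% in std MO wells, a difference of 29.3 percentage points (range over 3 plates 21.3 to 33.8; exact sign-flip permutation test, p = 0.25, the smallest that 3 plates allow). Depth differed in the same direction: the median globin-rich well held 4864.5, 4980.5 and 6078.5 UMIs in the irf8 MO, against 3669, 3493 and 3596 in the std MO. Thinned to 1000 UMIs, LGMN stood at 14.3, 15.1 and 16.9% of irf8 MO wells, against 6.63, 13.7 and 8.46% of std MO wells. The means were then 15.4% and 9.61%, a difference of 5.84 percentage points, higher in irf8 MO wells on 3 of 3 plates and least on plate 2 (1.42). Thinning lowers the shares of both groups, so this gap cannot be set directly against the 29.3 points as counted. In all other clusters the share averaged 34.4% in irf8 MO wells and 28.0% in std MO wells (difference 6.35 percentage points over 5 plates, exact sign-flip permutation test, p = 0.5). Whether the difference is larger in globin-rich wells than in the others was not tested. In wells pooled over plates, some finer clusters (resolution 2) were uneven between the morpholinos, but they also went with plate. A globin-rich cluster led by mitosis genes held 52 irf8 MO and 23 std MO wells, 61 of them on plate 2. An erythroid-like cluster held 14 irf8 MO and 68 std MO wells, 67 of them on plate 1. The remaining clusters whose best list was erythroid held 67 and 65, 27 and 39, 29 and 13, 21 and 11, and 38 and 14 irf8 MO and std MO wells. The morpholinos were not compared within plates for these clusters. The part of this mix in the LGMN difference was not tested. SLC40A1 went the other way in globin-rich wells, at 0, 0 and 1.67% of irf8 MO wells, against 3.90, 4.92 and 5.56% of std MO wells, but these shares rest on 1 and 10 wells.

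**Figure D4:**
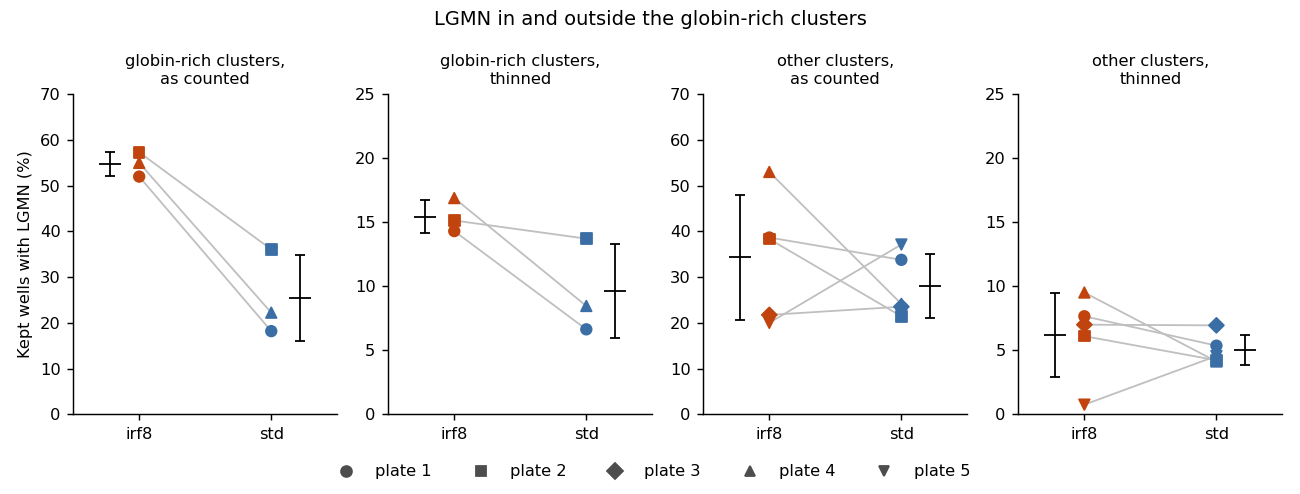
Share of kept wells with LGMN (%) in the globin-rich clusters 1 and 5 (left pair of panels, plates 1, 2 and 4) and in the other clusters (right pair, plates 1 to 5), as counted (axis to 70%) and thinned to 1000 UMIs (axis to 25%), with irf8 MO left of std MO. Symbols are plates, grey lines join the wells of 1 plate, and bars give the mean and SD over plates. In globin-rich wells LGMN is higher in the irf8 MO on all 3 plates, both as counted and thinned. Thinning lowers the shares of both groups, so gaps in percentage points are not comparable between the scales.

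Of the 933 kept wells, 465 carried none of the 8 genes, 193 of the irf8 MO and 272 of the std MO. At least 1 gene was found in 468 wells (273 irf8 MO, 195 std MO), and 321 of these carried only 1. The number of genes went with depth: the median well held 4090 UMIs with 0 genes, 6019 with 1, 13129 with 2 and 20471 with 3. The 17 wells with 4 or more genes, 10 of the irf8 MO and 7 of the std MO, had a median of 42511 UMIs. LGMN was the gene most often found alone, in 222 of its 338 wells (65.7%), followed by SPI1 in 10 of 21 (47.6%), and MPEG1 the least, in 1 of 12 (8.33%).

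The largest overlaps were between the more abundant genes. LGMN and LRP1 shared 64 wells (18.9% of LGMN wells and 46.7% of LRP1 wells), LGMN and SLC40A1 shared 56 (16.6% and 62.9%), and SLC40A1 and LRP1 shared 37 (41.6% and 27.0%). LRP1 was thus found in 41.6% of SLC40A1 wells, 41.7% of MFAP4 wells and 40.9% of HMOX1 wells, against 14.7% of all wells. HMOX1 and SLC40A1, the pair that frees and exports iron, met in 8 wells (36.4% of HMOX1 wells and 8.99% of SLC40A1 wells). In all wells the shares were 9.54% for SLC40A1 and 2.36% for HMOX1. Once wells were thinned, SLC40A1 was expected in 0.753% of HMOX1 carriers against 1.43% of all wells. The thinned value rests on the same 8 wells and on 0.0307 expected shared wells, too few to show whether the excess was kept. After thinning, LRP1 accompanied LGMN in 1.2% of its carriers against 2.96% of all wells, and SLC40A1 did so in 2.07% against 1.43%. LRP1 was then expected in 4.18% of SLC40A1 carriers, 4.47% of MFAP4 carriers and 6.82% of HMOX1 carriers, against 2.96% of all wells. The shared wells numbered 37, 20 and 9 before thinning, and 0.556, 0.281 and 0.278 in expectation after it. SPI1 and grna shared 4 wells (19.0% of SPI1 wells and 28.6% of grna wells). MPEG1 wells carried LGMN in 9 of 12 cases, SLC40A1 and LRP1 in 5 each and HMOX1 in 3. Wells of 1 plate share a library, and deeper wells carry more genes, so these overlaps are descriptions with no test.

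**Figure D5:**
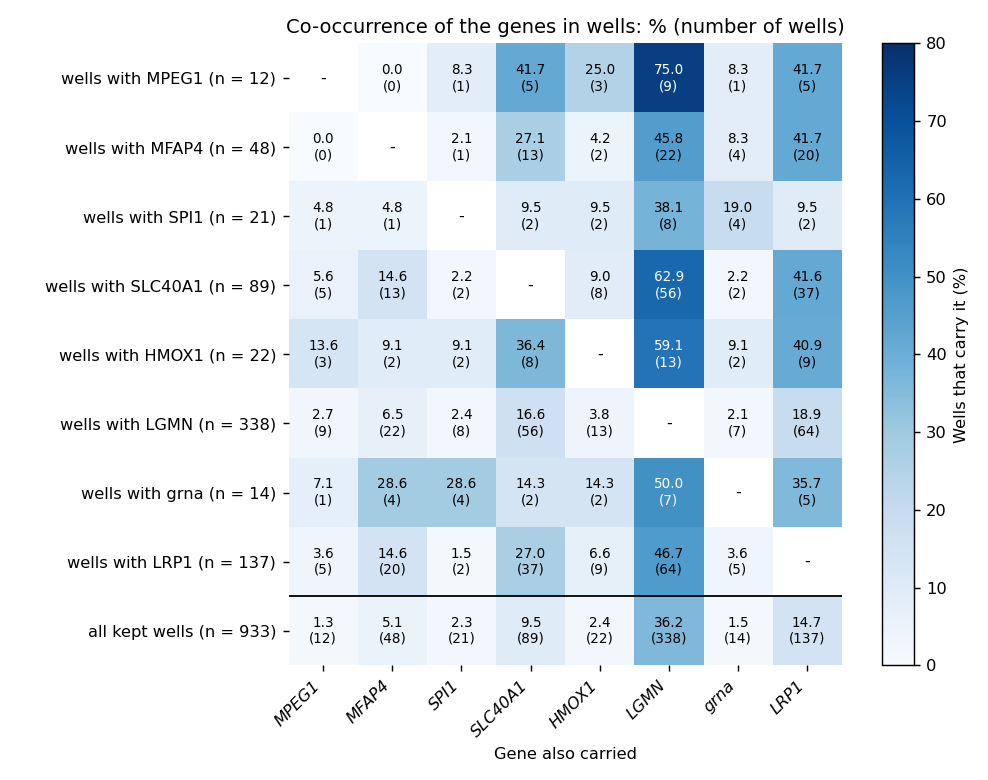
Percent (and number) of the wells carrying the gene named at the left that also carry the gene named below, with the share in all 933 kept wells in the last row. LGMN is found in 62.9% of SLC40A1 wells and 75% of MPEG1 wells against 36.2% of all wells. MPEG1 and MFAP4 (1 of 13 rows of its family) share 0 wells, where 0.617 would be expected if they were unrelated.

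MFAP4, MPEG1, SPI1 and grna have near relatives in the tables, so reads of close copies may have been split between rows. The MFAP4 family had 13 rows with 278 UMIs in 92 wells (45 irf8 MO, 47 std MO), against 57 UMIs for the row studied here, and 117 of the 278 were of a single other row in plate 1 well 4. In the GRCz12tu assembly of RefSeq, used for names only, mfap4 has 13 entries and mpeg1 has 3, each set on 1 chromosome. The 3 MPEG1 rows had 34 UMIs in 14 wells, 7 of each morpholino. SPI1 and spi1a had 99 UMIs in 32 wells (10 irf8 MO, 22 std MO), and they shared 8 wells. The 5 granulin rows had 122 UMIs in 77 wells (43 irf8 MO, 34 std MO). Of these, grnb was found in 39 wells and grna.1 in 18, with 16 of its 35 UMIs in plate 1 well 72.

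Other genes of the same processes were read from fixed lists, and no gene of any list was called in either direction. In the macrophage list 3 of 17 rows could be tested, with 1 positive and 2 negative log2 fold changes and a median of -0.32, against -0.03 over all genes tested. cd68, a lysosomal protein of macrophages, was at -1.42 (SE 0.59, unadjusted p = 0.0429, edgeR adjusted p = 0.509). Among 10 of 18 lysosome rows tested, 8 were negative and the median was -0.17, with CD63, a membrane protein of late endosomes, at -0.95 (edgeR adjusted p = 0.319) and NPC2, a cholesterol carrier, at -0.78 (edgeR adjusted p = 0.438). Among 8 of 21 iron and heme rows tested, 5 were negative, the median was -0.21 and none had an unadjusted p under 0.05. The ferritin gene fth1a was at -0.31 and BLVRA, which reduces the biliverdin that heme oxygenase makes, at 0.38. In the lists of other cells, all 5 neutrophil rows tested were negative (median -1.37), as were all 6 pan-leukocyte rows (median -1.08). An unadjusted p under 0.05 (edgeR) was found for 4 of the 5 neutrophil rows and 1 of the 6 pan-leukocyte rows. The neutrophil list was highest in the 11 wells of cluster 2, 4 of the irf8 MO and 7 of the std MO. These wells held 55 to 2693 UMIs of the list each. Its rows thus share a few wells and do not count as separate results. The part of the number of such wells in these values was not tested. All 6 muscle rows were positive (median 1.72), but none had an unadjusted p under 0.05. Plate 4 wells 231 and 333, both irf8 MO, held 16708 and 14405 UMIs of the muscle list. Of the 8 erythroid rows 6 were positive (median 0.26). Single erythroid genes differed in direction, with hbbe3 at 2.23, gata1a at 1.60 and hbae5 at -1.35. The medians of the other lists were -0.03 for HSPCs, -0.14 for thrombocytes, 0.04 for mesenchyme and cartilage and 0.58 for neural genes. Of the lymphoid, endothelial and lens lists, 1 row each could be tested, at -0.64, -1.41 and -0.10. The part of these shifts in the values of the 8 genes was not tested.

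Of the 60 wells with MPEG1 or MFAP4, 48 carried the MFAP4 row, which had 0 UMIs in plate 1 well 4. The 60 wells are not shown to be macrophages, and they were compared with the 873 others for these lists. Their summed macrophage level was a median of 0.621 transcripts per 10000 (range 0 to 44.0), against 0 (up to 26.2) in the others, and 9 of the 60 had 3 or more macrophage-list rows against 17 of the 873. The gene behind most of this was ms4a17a.11, of the MS4A membrane protein family, in 34 of the 60 wells (56.7%) against 14.9% of the others, and after thinning 7.81% against 2.85%. The next, cybb, which encodes the phagocyte oxidase subunit, was in 8 wells, cd68 in 9 and ccl34b.1 in 1. The defining markers marco and tyrobp were found in only 2 wells each of all 933 and c1qb in 1. Lysosomal genes differed little, at a median of 7.23 in these wells against 5.72 per 10000 in the others. The leading ones were CD63 (41 wells), PSAP (42), CTSD (35), CTSB (32) and NPC2 (29). Iron and heme genes were lower, at a median of 19.7 against 137 per 10000, and so was the erythroid list, at 70.3 against 2813. The iron list followed the ferritin gene fth1a, found in 59 of the 60 wells, followed by ncoa4 and slc11a2 in 34 each, ACO1 in 26 and BLVRA in 23. These wells were also deeper than the others, and the part of depth was not tested beyond the thinned shares. SPI1 carriers differed from the others in the pan-leukocyte list (median 31.9 against 0 per 10000), the neutrophil list (289 against 0) and the lysosome list (39.6 against 5.77).

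The genes most like each of the 8 in which wells carried them were found by the phi coefficient of detected against not detected, over 933 wells and 16069 genes detected in at least 10 of them. Depth, plate and cell type are shared by all such pairs, and phi is given as a description. LGMN was most like DMTN, a red cell membrane protein gene (phi 0.33), and ALDH1L2 was also among its nearest (0.29). SLC40A1 was most like GPT, cdc42ep5 and APLP2 (0.39 each), and HMOX1 most like avpr2aa (0.33), DENND3 and ENSDARG00000079660 (0.32 each). LRP1 was most like GPC4, a proteoglycan of the cell surface (0.47), TCF12 (0.47) and si:ch211-133n4.4 (0.46). SPI1 had the highest values of all, with si:ch211-264f5.2 (0.62), STX11, a syntaxin of immune cells (0.58), DHRS9 (0.56), ENSDARG00000070398 (0.56) and adgrg3 (0.55). MFAP4 was most like si:ch211-42i9.10, cadpsa and GAD2 (0.34 each), YPEL2 and gltpd2a (0.33 each). Of these, cadpsa serves vesicle release and GAD2 makes the neurotransmitter GABA. MPEG1 was most like chmp4c (0.33), FAM3D (0.32), si:ch211-189a15.5, KDELR3 (0.30 each) and parp14rs1 (0.29), each over at most 7 shared wells. grna was most like ENSDARG00000089327 (0.33), GEM (0.32) and si:ch73-314g15.3 (0.31), over 4 or 5 shared wells.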

How the data were processed

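SORT-seq libraries of 5 plates were read as deposited. The values are estimated counts: the authors counted unique UMIs per gene and well and corrected them for collisions between UMIs, without scaling for depth. The submitters' processing notes name BWA, Seurat and GRCz11, with no versions. The counter was not given in the sources used here. Inverting the correction, with 4096 possible UMIs, gave whole UMIs for 100% of 1759418 values (tolerance 1e-06). Spike-ins, 6.67% of the UMIs of kept wells, were left out. Of 23628 gene IDs, 18186 matched a symbol.

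Wells with at least 1000 estimated transcripts were kept. Doublets were not called, since the plates hold single sorted cells. Shares of wells with a UMI were compared within plates by an exact two-sided sign-flip permutation test, and each share was also given as its exact expectation after thinning every well to 1000 UMIs. Estimated counts of kept wells were summed per plate and morpholino (90113 to 1786615 UMIs), rounded, and fitted in edgeR 4.0.16 (R 4.3.3; filterByExpr, TMM, quasi-likelihood test, plate as a block), with Benjamini-Hochberg adjustment over all genes at 0.05. Both morpholinos share each plate in the labels, which gives the pairing. The 2 sums of a plate deviated together from the group means across 7141 genes (correlation 0.212, 0.328, 0.349, 0.323 and 0.127 for plates 1 to 5). The test was tested on simulated data with 200 changed genes.

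Wells were clustered without the 8 genes in scanpy 1.11.5 (2000 variable genes, 30 components, 15 neighbours, Leiden resolution 1), and a cluster was named only with at least 3 markers of 1 list, 1 of them among its 10 leading genes, and no more of another list there. Alternatives covered the normalization, DESeq2 1.42.0, filters on genes and wells, the block, thinning, the number of UMIs that counts as detected, the clustering, the largest wells and leaving out plates. Leaving out plates 3 and 5, and splitting LGMN by globin-rich clusters, were chosen after seeing the data. The 8 genes, the lists and the tests were chosen with earlier results of these data known.

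The lists were macrophage, lysosome, iron and heme handling, pan-leukocyte, neutrophil, erythroid, HSPC, thrombocyte, lymphoid, endothelial, muscle, mesenchyme and cartilage, neural and lens. Genes named were the 8 genes, IRF8, every called gene, the 5 genes with the highest phi for MPEG1, MFAP4 and SPI1 and the 3 highest for the others, up to 5 genes a list by level in wells with MPEG1 or MFAP4, and macrophage or iron genes with an unadjusted p under 0.05. Other genes, such as those of plate 1 well 4, were named after their values were seen. Some genes that the rule names are not reported here.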

Additional observations from a re-analysis of the deposited data

Results flagged for a closer look

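Among 32 groups of 5 plates examined for a plate far from the others, 4 had one. The limit used gives about 1 in 20 groups for normal, independent values. These values are sparse, and the share and the CPM of a gene come from the same counts, so no excess can be read from the 4. HMOX1 was found in 10.0% of irf8 MO wells on plate 5, against 2.1 to 4.35% on the other plates. This is 1 of 10 wells (95% exact binomial interval 0.253 to 44.5%), namely plate 5 well 268, which held 7 HMOX1 UMIs and lay in the keratin cluster 9. The irf8 MO sum of that plate stood at 61.9 CPM of HMOX1, against 2.07 to 7.51 CPM on the other plates. In the std MO, HMOX1 stood at 16.8 CPM on plate 2, against 1.31 to 3.92 CPM on the others, from 11 UMIs in 4 wells. MPEG1 was found in 10.0% of irf8 MO wells on plate 5, against 0 to 2.1% elsewhere, from 1 UMI in 1 of 10 wells.

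The 987 wells under 1000 transcripts (514 irf8 MO, 473 std MO; 178644 UMIs) enter no comparison. They held 4 UMIs of LGMN, all in irf8 MO wells, and 7 of MFAP4, 4 in irf8 MO wells and 3 in std MO wells. Per 100000 UMIs this is 3.92 (95% Poisson interval 1.58 to 8.07) for MFAP4, against 0.635 (0.481 to 0.823) in kept wells, and 2.24 (0.610 to 5.73) for LGMN, against 9.16 (8.55 to 9.81) in kept wells. The intervals cover counting error only.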

How the results depend on the processing

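The number of genes called, 1 of 7141, was also 1 with RLE factors and with at least 500 or 2000 transcripts per well. It was 216 in DESeq2, 356 with no filter on low counts, 110 after thinning (1067 genes tested), 4 without plates 3 and 5, 0 without the largest well of each sum and 0 with no replicate block, and 0 to 1 without each plate in turn. At 0 calls, 546 genes (no block) and 626 genes (without the largest wells) had an unadjusted p under 0.05. Why these counts differ was not tested, except that fewer genes entered the thinned fit. LGMN was called under none of these settings, nor were SLC40A1 and LRP1 in those where they were tested, which leaves out the thinned fit. With no filter on low counts, where all 8 genes entered, none of the 8 was. Without the block on plates their log2 fold changes were 0.29, -0.28 and -0.18. Apart from leaving out single plates, 1 of 28 alternative log2 fold changes of LGMN, SLC40A1 and LRP1 changed sign, LRP1 at 0.37 without plates 3 and 5 (adjusted p = 0.567). Leaving out each plate gave -0.088 to 0.35 for LGMN, -0.56 to -0.12 for SLC40A1 and -0.31 to 0.23 for LRP1, so that LGMN changed sign without plate 4 and LRP1 without plate 3 (0.23) and without plate 5 (0.0026).

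Apart from leaving out single plates, 9 of 50 alternative differences in shares changed sign: LRP1 at -0.864 (at least 500 transcripts) and -1.39 percentage points (at least 2 UMIs), MFAP4 at 0.0760 (thinned), 0.187 (at least 2 UMIs) and 0.680 (without plates 3 and 5), MPEG1 at -0.334 (at least 2 UMIs) and -0.412 (without plates 3 and 5), and grna at 0.00768 (thinned) and 0.342 (without plates 3 and 5). The cause was not tested. Without each plate in turn the differences ranged over 4.87 to 16.8 for LGMN, -8.09 to -0.802 for SLC40A1, 0.461 to 2.57 for HMOX1, 0.231 to 3.61 for LRP1, -3.06 to 2.65 for MFAP4, -0.309 to 2.69 for MPEG1, -0.691 to 0.465 for SPI1, -0.986 to 0.256 for grna and -0.871 to 2.34 for wells with MPEG1 or MFAP4. The sign changed without plate 5 for MFAP4 (2.65), MPEG1 (-0.309) and grna (0.256), and without plate 1 (0.246) and without plate 4 (0.465) for SPI1, and without plate 3 (-0.871) for wells with MPEG1 or MFAP4. The wells with at least 2 of the 8 genes numbered 147 as counted, 51 when a gene needed 2 UMIs, and 6.06 in expectation after thinning. The share of SPI1 carriers in the cluster led by lyz was 52.4%, and 81.0% at resolution 0.5, where that cluster also took in the HSPC-like wells. The share of LGMN carriers in clusters whose best list was erythroid was 48.5%, and 55.6% at resolution 2. With 12 to 22 carriers each, no order between morpholinos can be read for HMOX1, SPI1, grna and MPEG1.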

Other observations

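At a finer clustering (resolution 2), 10 wells with cdh5, stab2 and sele among their leading genes formed an endothelial-like cluster (4 irf8 MO, 6 std MO), which was not separate at the resolution used above. LGMN was found in 6 of them with 51 UMIs and, thinned to 1000 UMIs, in 25.5%. SLC40A1 was found in 5 with 10 UMIs and, thinned, in 8.34%. Both thinned shares exceed those of the 11 clusters described above, but rest on 10 wells. HMOX1, MPEG1 and SPI1 were found in none of the 10. At the same resolution 10 of the 48 MFAP4 wells lay in a cluster of 37 wells (27.0%, thinned 5.93%) that reached no name. LGMN was carried by 42 of 75 wells (56.0%, thinned 14.1%) of a globin-rich cluster led by mitosis genes such as nuf2, CENPF and aurka. That globin-rich cluster held 52 irf8 MO and 23 std MO wells, and 61 of its 75 wells lay on plate 2.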
